A study of Oreochromis niloticus with 6 samples.

Results

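The transcripts of the circadian clock were followed in livers of GIFT, a strain of Nile tilapia (Oreochromis niloticus) bred for farming. Gene loci were taken by name from the deposited expression table, wherever a name began with per1 to per3, cry, clock, arntl, npas2, nr1d1 to nr1d4, rora to rorc, bhlhe4, dbp, tef or nfil3. Of 31872 loci, 68 matched. The names of 47 of these are those of clock proteins or of flavoproteins related to cryptochromes, and the other 21 are mostly lens crystallins, which share only the letters cry. The 47 comprised 20 loci of the positive limb, 24 of the negative limb and 3 light-related loci. The study sequenced 6 liver RNA libraries, 3 from the hypoxia-stressed group (HG) and 3 from the control group (CG). HG tanks were brought to a dissolved oxygen (DO) of 0.7 to 0.8 mg/L by nitrogen according to the labels (the paper's methods give a lower level), and CG tanks were held at 5 mg/L. All fish were sampled at 96 h. The paper describes a fast before the experiment, and both groups come from the same strain, with no age given. How many fish gave RNA to a library is not given in the sources used here, nor are the hour of day and the light regime at sampling, and the p values measure the spread between these libraries only.

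The clock is a feedback loop of transcription. CLOCK or its relative NPAS2 pairs with BMAL (here arntl) on E-box sites and switches on per and cry genes, whose proteins return to the nucleus and block that pair. A linked loop sets the REV-ERB repressors (nr1d genes) against the ROR activators on the arntl promoter, and an output arm sets the activators DBP and TEF against the repressor NFIL3 on D-box sites. BHLHE40 and BHLHE41, also called DEC, compete with CLOCK and BMAL for E-boxes, and BHLHE40 is in mammals a known target of hypoxia-inducible factor. In liver the loop times glucose, lipid and bile acid metabolism, and in zebrafish many peripheral tissues also respond to light directly. Many of these genes are duplicated in teleost fish, and copies are marked by a final a or b or by a number.

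Values are FPKM (fragments mapped to a locus, scaled by its length and by the size of the library), made by the authors with HISAT and StringTie, and each value is a level per length of the locus. Differences between the groups are given as HG minus CG of the mean log2(FPKM + 1), called log2 fold change here and smaller than the true one for weak genes, and were tested with limma over the 16423 loci that averaged 1 FPKM or more across the libraries. A locus was called higher or lower at a Benjamini-Hochberg adjusted p under 0.05 over all tested loci. By this rule 20.4% of all tested loci were called, 8.27% higher and 12.1% lower in HG, and the groups did not overlap for 43.5% of them. As a median, all tested loci had a log2 fold change of -0.14, which became 0.01 when libraries were scaled by the median of ratios. With that scaling 53.3% of all calls were higher in HG, against 40.6% without it. Pearson correlations across genes were 0.868 to 0.918 within HG, 0.873 to 0.901 within CG and 0.661 to 0.785 between the groups. The FPKM of a library summed to 459912 to 475226 in HG and 474946 to 493870 in CG, and since the table holds no counts, no counting interval was computed for a single value.

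Levels of clock transcripts in the HG livers differed from those in the CG livers in both directions within each limb. Among activators, the D-box factor dbpa was higher while clockb, arntl2 and tefb were lower. Among repressors, nfil3-6, nr1d2b and cry1ba were higher while nfil3-2, nfil3-5, nr1d4b, cry2 and both bhlhe40 loci were lower. The per genes did not pass and varied widely within each group. Of the 20 positive-limb loci 12 reached 1 FPKM and were tested, with 2 called higher, 4 called lower and 6 not called. Of the 24 negative-limb loci 19 were tested, with 3 called higher, 7 called lower and 9 not called. The called share was 50% of the tested positive-limb loci and 52.6% of the tested negative-limb loci, against 20.4% of all tested loci. Loci are counted here and not genes. Both higher calls of the positive limb carry the name dbpa, and arntl2, nr1d4b and bhlhe40 were each called at more than 1 locus. Loci of the same name may not be independent. These shares cover only loci that passed the minimum, and 8 of the 31 tested loci of the limbs passed it while only 1 group averaged 1 FPKM or more. Of those 8, 6 were called, namely both dbpa loci, arntl2 (MSTRG.19020), nfil3-2 (MSTRG.5532), nfil3-5 and bhlhe40 (MSTRG.5173). These 6 passed the minimum only through the group in which they were high. The other 10 calls were on loci with both group means at or above 1 FPKM. The calls were thus 75% of the 8 and 43.5% of the rest, against 26.3% and 18.9% of the loci of the same kind over the whole table. The median log2 fold change was -0.42 for the tested positive limb and -0.48 for the tested negative limb, against -0.14 over all tested loci. Leaving out 1 library left 1 to 2 higher and 1 to 3 lower loci in the positive limb and 1 to 2 higher and 4 to 7 lower loci in the negative limb. Without HG-1, whose loss cost most calls over both limbs, the positive limb had 1 higher and 1 lower and the negative limb 2 higher and 4 lower. The called shares were then 16.7% and 31.6%, against 9.67% of all tested loci. The negative limb alone lost most without CG-1, with 1 higher and 4 lower (26.3%, against 12.8% of all tested loci). Only 7 of the 16 calls held without each library in turn. They were dbpa (MSTRG.15507), tefb, nfil3-2 (MSTRG.5532), nfil3-5, nfil3-6, nr1d4b (MSTRG.4017) and bhlhe40 (MSTRG.5173). Of these, dbpa, nfil3-2, nfil3-5 and bhlhe40 are among the 6 that passed the minimum only through the group in which they were high. The minimum was set on all 6 libraries, so no locus could leave the test when a library was left out. The share of all calls in the table that held in the same way is not given here. A Ballgown-style linear model with 3 residual degrees of freedom called 0 clock loci after adjustment and 2 loci of the whole table, and at an unadjusted p under 0.05 it found 5 loci of the 2 limbs higher and 10 lower, against 6 and 12 in limma. At that threshold the shares of the 31 loci were 48.4% in the Ballgown-style model and 58.1% in limma, against 21.8% and 36.6% of all tested loci.

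**Figure D1:**
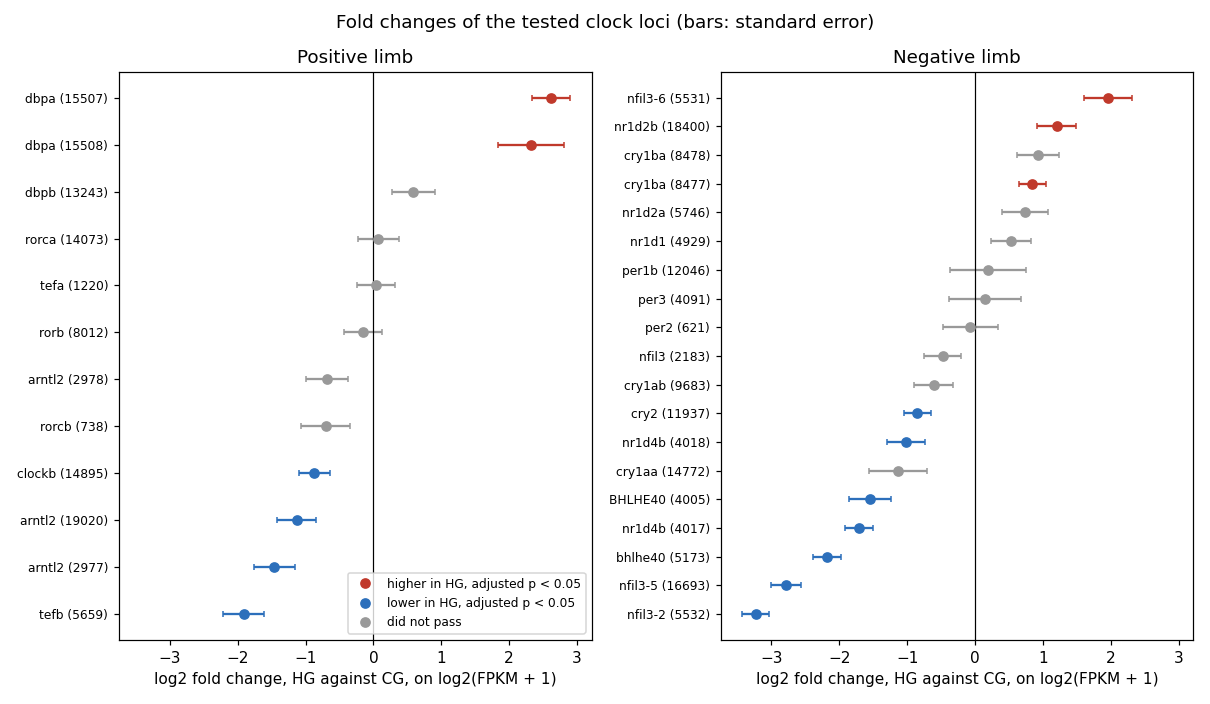
Log2 fold change (HG minus CG, in log2(FPKM + 1)) of the 12 tested positive-limb loci (left) and the 19 tested negative-limb loci (right), with bars for the standard error. Colours mark the limma call, and each limb spreads to both sides of 0, with dbpa at 2.62 and tefb at -1.91 as the ends of the positive limb and nfil3-6 at 1.96 and nfil3-2 at -3.23 as the ends of the negative limb.

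Markers of cell types that a liver sample can hold were examined as well, to be read against the 20.4% of all tested loci that were called. The summed level of 12 hepatocyte loci, from 8 of 12 listed symbols, was 54500 to 65868 FPKM in HG and 30184 to 44898 FPKM in CG. Most of that sum came from apoa1a and fabp10a (MSTRG.13212), at 24062 and 20798 FPKM in HG-1 and 7199 and 11450 FPKM in CG-1. Of these apoa1a was called higher and fabp10a was not called. Of 11 tested hepatocyte loci 2 were higher and 0 lower (18.2% called). Hepatocyte genes such as fabp10a, apoa1a and the fibrinogens were abundant in every library. The 9 loci of the exocrine pancreas list, a tissue that in many teleosts lies within the liver, summed to 98.0 to 707 FPKM in HG and 1228 to 2600 FPKM in CG, with 7 of 8 tested loci lower (87.5%). Bile duct loci (7) summed to 221 to 289 FPKM in HG and 608 to 708 FPKM in CG, with 3 of 5 tested lower (60%). Most of that sum came from krt8 and krt18, at 186 and 89.7 FPKM in HG-1 and 448 and 218 FPKM in CG-1. Endothelial loci (7) summed to 20.5 to 24.4 FPKM in HG and 44.4 to 55.4 FPKM in CG, with 4 of 6 tested lower (66.7%). The 14 loci of macrophages and neutrophils summed to 1817 to 3169 FPKM in HG and 1877 to 2200 FPKM in CG, with 5 of 13 tested lower (38.5%) and 0 higher. Most of that sum came from the LYZ loci MSTRG.21378 and MSTRG.2708, at 960 and 836 FPKM in HG-1, neither of which passed. The lower loci included ncf1 (mean 1.44 FPKM in HG and 42.7 FPKM in CG) and mmp9 (0.446 and 15.0 FPKM). The 2 red blood cell loci summed to 17.8 to 32.5 FPKM in HG and 7.67 to 29.2 FPKM in CG, and neither passed (0%). No marker locus was at 0 in all libraries, though mmp13b and 1 of the loci named cftr were at 0 in all of HG. The part of these cell types in the clock results was not tested, and in bulk tissue fewer cells of a type and less RNA per cell cannot be told apart.

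Of the 8 loci of CLOCK, BMAL and NPAS2, the activators at the core of the loop, 4 were tested and 3 were lower in HG, 1 of clockb and 2 of arntl2. Over all tested loci 12.1% were lower, and 4 loci are too few to set a share against that. For clockb (MSTRG.14895), a fish copy of the CLOCK activator, the level was 1.39, 1.85 and 1.61 FPKM in HG and 5.30, 2.96 and 3.31 FPKM in CG, and no HG library reached a CG library. The log2 fold change was -0.87 (SE 0.23, limma adjusted p = 0.0424), a call that ended when any of the 6 libraries was left out (adjusted p = 0.0578 to 0.131). Its duplicate clocka was split over 2 weak loci that did not reach the minimum. MSTRG.2603 held 0.103, 0.116 and 0.0393 FPKM in HG against 1.22, 0.869 and 0.657 FPKM in CG, and MSTRG.2602 held 0.0252, 0.0310 and 0.0669 FPKM in HG against 0.698, 0.372 and 0.360 FPKM in CG. Both clocka loci thus lay below CG in every HG library, and in a fit with no minimum, quoted after the values were seen, their adjusted p was 0.0325 and 0.0469 from limma, where 7.16% of 31872 loci passed and the groups did not overlap for 31.8%.

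The name arntl2 (1 of many), a form of BMAL, the partner of CLOCK, is carried by 3 loci, which may share reads. MSTRG.2977 and MSTRG.2978 have adjoining numbers and may be pieces of 1 gene, while MSTRG.19020 is numbered far from both. The most abundant, MSTRG.2977, held 1.29, 2.49 and 2.78 FPKM in HG and 11, 6.35 and 6.19 FPKM in CG. Its groups did not overlap, and the log2 fold change of -1.46 passed (SE 0.30, limma adjusted p = 0.0184), as it did in the fits without 1 library except without HG-1 (adjusted p = 0.0622). MSTRG.19020 held 0.175, 0.255 and 0.727 FPKM in HG and 2.71, 1.49 and 1.90 FPKM in CG, with a log2 fold change of -1.13 ± 0.29 (SE, limma adjusted p = 0.0375). That call held without HG-3 and ended without each of the other libraries (adjusted p up to 0.1). MSTRG.2978 had a log2 fold change of -0.69 and did not pass (SE 0.31, limma adjusted p = 0.163), although each of its HG levels, 0.147 to 0.998 FPKM, was under each of its CG levels, 1.27 to 2.17 FPKM. arntl1a (MSTRG.2108), the other BMAL gene, averaged 0.459 ± 0.329 FPKM in HG and 1.08 ± 0.272 FPKM in CG (SD, n = 3), with overlapping groups, and was too weak to test. npas2 (MSTRG.20462), which can replace CLOCK, averaged 0.349 ± 0.301 FPKM in HG and 0.345 ± 0.291 FPKM in CG (SD, n = 3). The core activators were thus weak transcripts, and MSTRG.2977 was the only locus of CLOCK, BMAL or NPAS2 with a group mean above 5 FPKM (2.19 ± 0.790 FPKM in HG and 7.84 ± 2.72 FPKM in CG, SD, n = 3).

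The ROR activators, nuclear receptors that drive arntl transcription, showed no call. Of 7 ror loci 3 were tested, and 0 passed in limma, at an unadjusted p under 0.05 or in the Ballgown-style model. Since limma called only 20.4% of all tested loci, 0 of 3 does not set the ror genes apart from other loci. rorcb (MSTRG.738) was the most abundant, at 4.68, 7.48 and 3.50 FPKM in HG and 7.13, 6.54 and 14.2 FPKM in CG, and its groups overlapped (log2 fold change -0.70 ± 0.36 SE, limma adjusted p = 0.206). rorca (MSTRG.14073) and rorb (MSTRG.8012) had log2 fold changes of 0.07 and -0.16, with standard errors of 0.30 and 0.28. rorc (MSTRG.13599), under the minimum at a mean of 0.848 FPKM, went the other way from the core activators, with 0.831, 2.34 and 1.26 FPKM in HG and 0.147, 0.205 and 0.301 FPKM in CG. Its groups did not overlap, and with no minimum its adjusted p was 0.0888. The rora copies were close to 0. roraa was at 0 in 2 HG libraries and 1 CG library, and the 2 rorab loci were at most 1.28 FPKM in HG and 0.793 FPKM in CG.

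**Figure D2:**
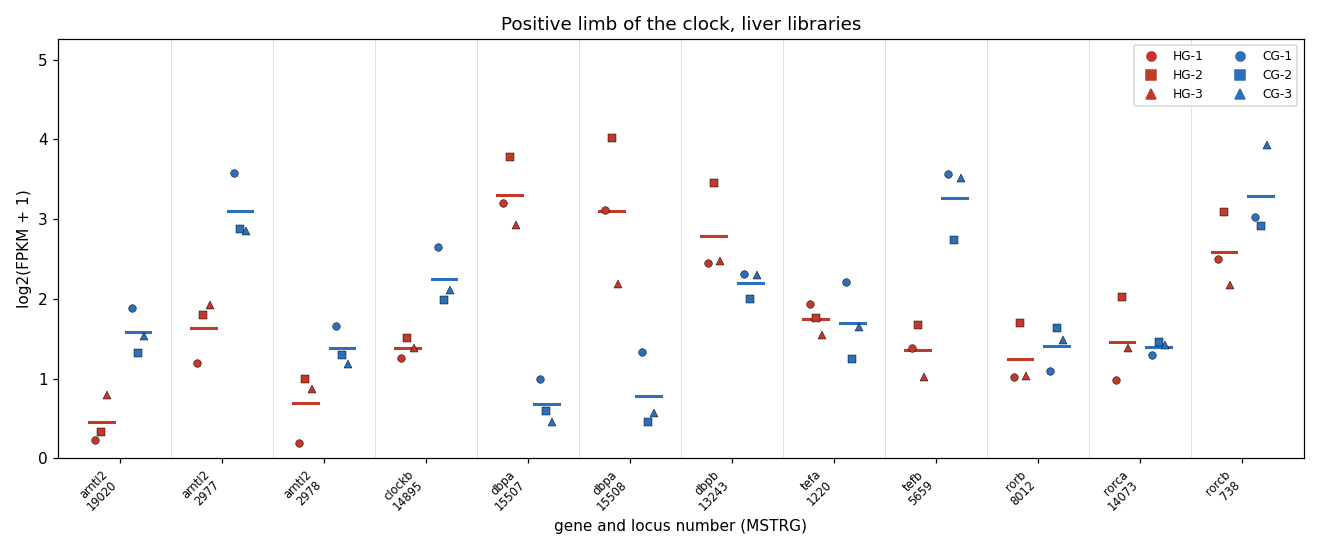
Level, as log2(FPKM + 1), of the 12 tested positive-limb loci in each library, HG (red) left of CG (blue) at each locus, with bars for the group means and a marker shape for each replicate number. The 2 dbpa loci stand above CG in every HG library, while clockb, tefb and the 3 arntl2 loci stand below CG in every HG library.

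The D-box activators split. dbpa, a transcription factor named in mammals for the albumin promoter and driven by CLOCK and BMAL through E-boxes, was strongly higher in HG. At MSTRG.15507 it held 8.17, 12.7 and 6.58 FPKM in HG and 0.991, 0.508 and 0.371 FPKM in CG, a log2 fold change of 2.62 ± 0.28 (SE, limma adjusted p = 0.00234). The call held without each library in turn (adjusted p = 0.00821 to 0.0145). The locus numbered next to it, MSTRG.15508, carries the same name and held 7.70, 15.2 and 3.54 FPKM in HG and 1.52, 0.367 and 0.485 FPKM in CG, with a log2 fold change of 2.32 ± 0.48 (SE, limma adjusted p = 0.0196). This call ended without HG-1, CG-2 or CG-3 (adjusted p up to 0.0683), and the 2 loci may be parts of 1 gene. In both, HG-2 was the highest library and HG-3 the lowest of its group.

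The duplicate dbpb (MSTRG.13243) held 4.46, 9.94 and 4.57 FPKM in HG and 3.96, 2.99 and 3.94 FPKM in CG. Its groups did not overlap, HG lying above CG, but the log2 fold change of 0.59 did not pass (SE 0.31, limma adjusted p = 0.218). tefb (MSTRG.5659), a relative of DBP that binds the same sites, moved the opposite way. It held 1.62, 2.19 and 1.02 FPKM in HG and 10.8, 5.65 and 10.4 FPKM in CG, a log2 fold change of -1.91 ± 0.30 (SE, limma adjusted p = 0.00770) that passed without each library in turn (adjusted p = 0.00947 to 0.0351). Its duplicate tefa (MSTRG.1220) averaged 2.38 ± 0.465 FPKM in HG and 2.38 ± 1.14 FPKM in CG (SD, n = 3), with a log2 fold change of 0.04 and a standard error of 0.28. The groups of tefa overlapped, with CG-1 the highest and CG-2 the lowest of all 6 libraries.

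The repressor NFIL3 competes with DBP and TEF for D-boxes, and its copies gave the widest range within a single family. nfil3-2 (MSTRG.5532) held 0.272, 0.448 and 0.554 FPKM in HG and 12.9, 10.1 and 14.5 FPKM in CG, a log2 fold change of -3.23 ± 0.20 (SE, limma adjusted p = 0.000926). nfil3-5 (MSTRG.16693) held 0.318, 0.362 and 0.846 FPKM in HG and 10.9, 9.24 and 8.08 FPKM in CG, a log2 fold change of -2.79 ± 0.22 (SE, limma adjusted p = 0.00115). Both copies were thus expressed above 8 FPKM in every CG library and under 1 FPKM in every HG library. nfil3-6 (MSTRG.5531) did the reverse, with 17.4, 19.5 and 28.1 FPKM in HG and 8.15, 3.08 and 4.07 FPKM in CG, a log2 fold change of 1.96 ± 0.35 (SE, limma adjusted p = 0.0122). All 3 calls held without each library in turn, with adjusted p of at most 0.00837, 0.00904 and 0.0439. In the RefSeq annotation of the O_niloticus_UMD_NMBU assembly nfil3-6 and nfil3-2 are neighbouring genes, and in the deposited table their locus numbers follow each other. nfil3 (MSTRG.2183) itself held 1.72, 2.11 and 3.69 FPKM in HG and 3.66, 4.87 and 2.92 FPKM in CG, with overlapping groups and no call (log2 fold change -0.48 ± 0.27 SE, limma adjusted p = 0.252). A further locus named nfil3-2, MSTRG.5533, was at 0 in 5 libraries and held 5.76 FPKM in CG-3.

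**Figure D3:**
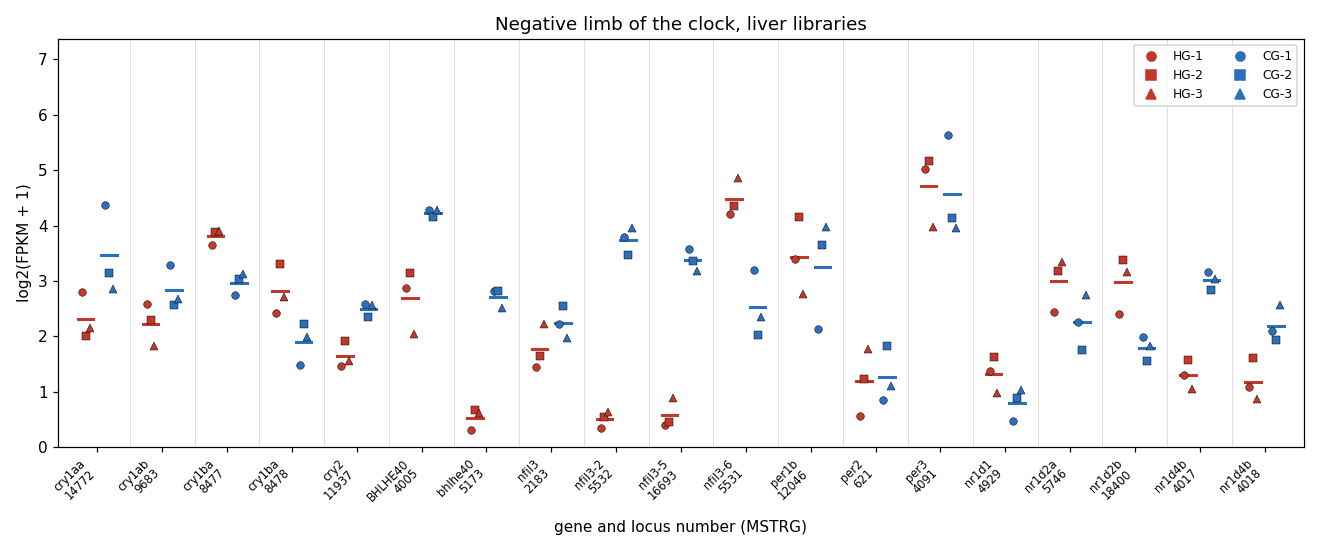
Level, as log2(FPKM + 1), of the 19 tested negative-limb loci in each library, HG (red) left of CG (blue) at each locus, with bars for the group means and a marker shape for each replicate number. nfil3-2, nfil3-5 and bhlhe40 (MSTRG.5173) lie under 1 FPKM in HG and above 4 FPKM in CG, nfil3-6 lies higher in HG, and the 3 per loci overlap widely.

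Of the 4 loci of the DEC repressors, both bhlhe40 loci were tested and lower in HG (against 12.1% of all tested loci), and both bhlhe41 loci were under the minimum. bhlhe40 (MSTRG.5173) held 0.234, 0.595 and 0.530 FPKM in HG and 6.02, 6.03 and 4.71 FPKM in CG, a log2 fold change of -2.18 ± 0.21 (SE, limma adjusted p = 0.00166). The groups lay far apart, and the call held without each library in turn (adjusted p = 0.00719 to 0.0105). The locus BHLHE40 (1 of many) (MSTRG.4005) was more abundant, with 6.33, 7.86 and 3.12 FPKM in HG and 18.4, 16.7 and 18.4 FPKM in CG. Its log2 fold change was -1.55 (SE 0.31, limma adjusted p = 0.0169), and the call ended without HG-1 or CG-1 (adjusted p up to 0.0525). bhlhe41 (MSTRG.2985), under the minimum, held 0.541, 0.335 and 0.624 FPKM in HG and 1.52, 1.09 and 1.11 FPKM in CG, so that its groups also did not overlap (limma adjusted p = 0.147 with no minimum). Another bhlhe41 locus, MSTRG.2986, was at 0 in every library but HG-1.

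The PER repressors gave no call, although per3 had the highest mean level over the 6 libraries of all clock loci (26.8 FPKM). per3 (MSTRG.4091) held 31.3, 35.0 and 14.8 FPKM in HG and 48.5, 16.5 and 14.5 FPKM in CG, per1b (MSTRG.12046) held 9.51, 16.8 and 5.77 FPKM in HG and 3.38, 11.5 and 14.7 FPKM in CG, and per2 (MSTRG.621) held 0.480, 1.35 and 2.41 FPKM in HG and 0.804, 2.54 and 1.16 FPKM in CG. In all 3 the groups overlapped and single libraries of a group differed by more than the group means did. The log2 fold changes were 0.15 for per3, 0.19 for per1b and -0.07 for per2, with standard errors of 0.53, 0.56 and 0.40, each larger than the fold change itself. Of these 3 loci 0 passed in limma, at an unadjusted p under 0.05 or in the Ballgown-style model. With 20.4% of all tested loci called in limma, 0 of 3 does not set the per genes apart from other loci. CG-1 was at opposite ends of its group for per3, where it was the highest, and for per1b, where it was the lowest. Without CG-1 the log2 fold changes were 0.68 for per3 and -0.37 for per1b (limma adjusted p = 0.310 and 0.602). PER2 (1 of many) (MSTRG.24994) was weak, with 0.340 to 0.396 FPKM in HG and 0.247 to 1.03 FPKM in CG.

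The cryptochromes of the negative limb, which block CLOCK and BMAL together with PER, differed between copies. cry1ba (MSTRG.8477) was higher in HG, with 11.5, 13.7 and 14.0 FPKM in HG and 5.70, 7.22 and 7.71 FPKM in CG. Its log2 fold change of 0.84 passed (SE 0.20, limma adjusted p = 0.0310), but ended when any of the 6 libraries was left out (adjusted p = 0.0530 to 0.0862). The locus numbered next to it, MSTRG.8478, of the same name, held 4.36, 8.86 and 5.57 FPKM in HG and 1.78, 3.68 and 2.95 FPKM in CG, without overlap but also without a call (log2 fold change 0.92 ± 0.31 SE, limma adjusted p = 0.0769). It was called with libraries scaled by the median of ratios (limma adjusted p = 0.0496). cry2 (MSTRG.11937) was lower, with 1.77, 2.77 and 1.92 FPKM in HG and 4.99, 4.07 and 4.92 FPKM in CG, a log2 fold change of -0.85 ± 0.20 (SE, limma adjusted p = 0.0281). That call held without HG-2 and ended without each of the other libraries (adjusted p up to 0.101). cry1aa (MSTRG.14772) held 5.94, 3.00 and 3.44 FPKM in HG and 19.8, 7.84 and 6.27 FPKM in CG. Its groups did not overlap, CG-1 lay far above the other CG libraries, and the log2 fold change of -1.14 did not pass (SE 0.43, limma adjusted p = 0.107) and was -0.69 without CG-1. cry1ab (MSTRG.9683) had a log2 fold change of -0.61 and did not pass (SE 0.29, limma adjusted p = 0.183).

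The REV-ERB receptors, which bind heme and repress arntl, also split. nr1d2b (MSTRG.18400) held 4.31, 9.37 and 7.96 FPKM in HG and 2.95, 1.93 and 2.54 FPKM in CG, a log2 fold change of 1.20 ± 0.29 (SE, limma adjusted p = 0.0321). The call held without HG-1 and ended without each of the other libraries (adjusted p up to 0.0966). nr1d2a (MSTRG.5746) and nr1d1 (MSTRG.4929) had positive log2 fold changes of 0.74 and 0.53 that did not pass (standard errors 0.34 and 0.29, adjusted p = 0.172 and 0.237 from limma), and their groups overlapped. nr1d4b was lower. At MSTRG.4017 it held 1.47, 1.98 and 1.06 FPKM in HG and 7.89, 6.18 and 7.24 FPKM in CG, a log2 fold change of -1.71 ± 0.21 (SE, limma adjusted p = 0.00367) that held without each library in turn (adjusted p = 0.0122 to 0.0212). At the adjoining locus number, MSTRG.4018, it held 1.11, 2.03 and 0.821 FPKM in HG and 3.25, 2.81 and 4.92 FPKM in CG, a log2 fold change of -1.02 ± 0.28 (SE, limma adjusted p = 0.0443). This call held without HG-2, ended without each of the other libraries (adjusted p up to 0.130) and also ended when libraries were scaled by the median of ratios (adjusted p = 0.0758). nr1d4a (MSTRG.10864) averaged 0.749 ± 0.549 FPKM in HG and 0.444 ± 0.0801 FPKM in CG (SD, n = 3) and was too weak to test.

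Because related genes had log2 fold changes of opposite sign, 5 pairs of them, chosen after their values were seen, are described with no test. Of the members of these pairs only cry1aa was not called. The pairs are compared within each library, where library scaling affects both partners alike apart from the pseudocount. nfil3-6 minus nfil3-2 was 3.86, 3.83 and 4.23 in HG and -0.60, -1.44 and -1.61 in CG on the log2(FPKM + 1) scale. nfil3-6 minus nfil3-5 was 3.81, 3.91 and 3.98 in HG and -0.38, -1.33 and -0.84 in CG. The order of these NFIL3 copies was thus opposite in the groups, nfil3-6 leading in every HG library and trailing in every CG library. dbpa (MSTRG.15507) minus tefb was 1.81, 2.10 and 1.91 in HG and -2.57, -2.14 and -3.05 in CG, and nr1d2b minus nr1d4b (MSTRG.4017) was 1.11, 1.80 and 2.12 in HG and -1.17, -1.29 and -1.22 in CG. In both of these pairs the order was likewise opposite in the groups, the first gene leading in every HG library and trailing in every CG library. cry1ba (MSTRG.8477) minus cry1aa was 0.85, 1.88 and 1.76 in HG and -1.63, -0.11 and 0.26 in CG, so that the order in CG depended on the library. The differences between group means were 5.19, 4.75, 4.53, 2.90 and 1.99 for the pairs in the order given, and since the pairs were picked for their opposite directions, this separation was fixed by the choice.

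**Figure D4:**
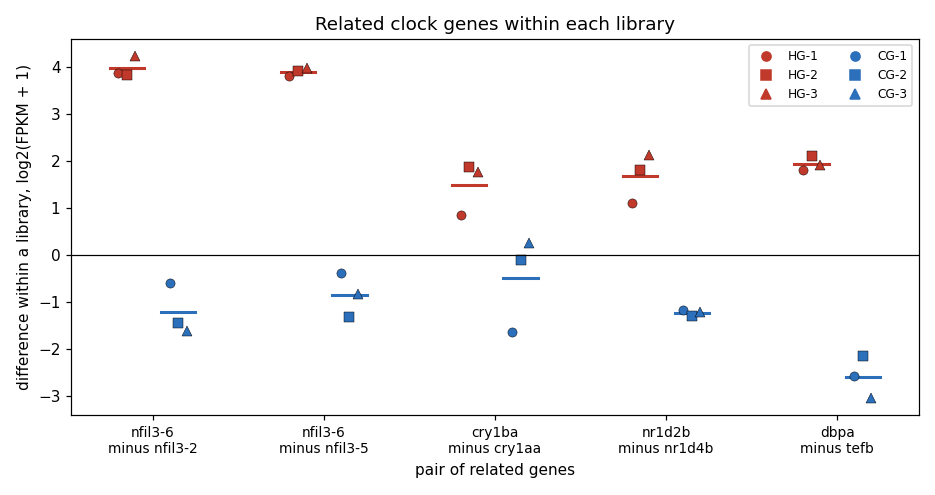
Difference between 2 related genes within a library, in log2(FPKM + 1), for 5 pairs, HG (red) left of CG (blue), with bars for the group means. In 4 pairs every HG library lies above 0 and every CG library below 0, and in the pair of cry1ba and cry1aa the CG libraries lie between -1.63 and 0.26.

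Where a clock name was carried by 2 or 3 loci, their log2 fold changes mostly shared a sign. In the fit with no minimum, all loci of arntl2 (3), bhlhe40 (2), clocka (2), nfil3-2 (2), nr1d4b (2), per2 (2) and cry5 (2) had negative log2 fold changes, and both loci of dbpa and of cry1ba had positive ones. The exceptions were bhlhe41 and rorab, each with 1 locus of either sign. How often loci of the same name share a sign over the whole table was not computed. Over all tested loci 9543 log2 fold changes were negative and 6880 positive. Some of the shared signs say little. The per2 loci were at -0.07 and -0.09 (limma adjusted p = 0.932 and 0.819). The nfil3-2 locus MSTRG.5533 rested on CG-3 alone (limma adjusted p = 0.507). Loci of the same name may share reads or, where their numbers adjoin, be parts of 1 transcript, and so may not be independent of each other.

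The light-related flavoproteins are relatives of cryptochromes that in other species repair DNA or sense light rather than repress the clock. cry5 is a photolyase-like gene in fish. Its locus MSTRG.192 averaged 1.05 ± 0.156 FPKM in HG and 1.30 ± 0.264 FPKM in CG (SD, n = 3) without a call (log2 fold change -0.16 ± 0.23 SE, limma adjusted p = 0.657). The cry5 locus MSTRG.191 held 0.531, 0 and 0 FPKM in HG and 2.44, 1.13 and 0.911 FPKM in CG and was under the minimum. The locus MSTRG.1794 joins cry-dash with myd88, an adaptor of Toll-like receptors, and held 4.13, 3.37 and 5.03 FPKM in HG and 20.0, 18.4 and 9.99 FPKM in CG (log2 fold change -1.68 ± 0.30 SE, limma adjusted p = 0.0118). The share of cry-dash in that value cannot be told apart from that of myd88.

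Proteins that modify the clock were examined as a separate list of 30 gene symbols, chosen with earlier results of these data known. Of these proteins 25 were found, at 43 loci. They include the casein kinases that phosphorylate PER, the ubiquitin ligase parts that mark PER and CRY for degradation, and the CLOCK inhibitor CIPC. Of 33 tested loci 0 were higher and 12 were lower in HG in limma (2 higher and 15 lower at an unadjusted p under 0.05, and 1 higher and 9 lower at an unadjusted p under 0.05 in the Ballgown-style model), which is 36.4% called against 20.4% of all tested loci. Scaling by the median of ratios gave 5 lower and 1 higher, or 18.2% against 20.8% of all tested loci, and leaving out any 1 library gave 3 to 6 lower. Without HG-1 the 3 were 9.09%, against 9.67% of all tested loci, so the called share of the modifiers was above that of all loci only in some of the fits. cipca (MSTRG.15922) held 3.93, 4.68 and 4.40 FPKM in HG and 41.2, 27.0 and 32.7 FPKM in CG, a log2 fold change of -2.68 ± 0.22 (SE, limma adjusted p = 0.00130). Its groups lay far apart, and another cipca locus, MSTRG.15921, had a log2 fold change of -1.24 (limma adjusted p = 0.0129). fbxw7 (MSTRG.12386), a ubiquitin ligase subunit that in mammals acts on REV-ERB alpha, held 1.52, 1.63 and 1.73 FPKM in HG and 5.67, 6.80 and 4.85 FPKM in CG (log2 fold change -1.36 ± 0.19 SE, limma adjusted p = 0.00507).

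Genes known in mammalian liver to follow the clock were found at 23 loci, and of 18 tested loci 3 were higher and 6 were lower (50% called, against 20.4%). The list, which holds pck1 and cyp7a1, was chosen with earlier results of these data known, so its share only describes the listed loci. Leaving out any 1 library gave 2 to 3 higher and 3 to 6 lower, with 3 lower without each of the HG libraries. Among the higher ones, usp2a (MSTRG.26004), a deubiquitinase, held 4.11, 7.73 and 3.94 FPKM in HG and 1.26, 1.25 and 0.892 FPKM in CG (log2 fold change 1.51 ± 0.27 SE, limma adjusted p = 0.0117). Its duplicate usp2b (MSTRG.16622) was lower, with 1.80, 0.778 and 0.848 FPKM in HG and 8.70, 5.79 and 4.40 FPKM in CG (log2 fold change -1.76 ± 0.29 SE, limma adjusted p = 0.00972). The usp2 copies thus moved in opposite directions. cyp7a1, the rate-limiting enzyme of bile acid synthesis, and srebf1, an activator of fatty acid synthesis, were higher. cyp7a1 (MSTRG.20329) held 70.2 to 110 FPKM in HG and 2.26 to 5.30 FPKM in CG (log2 fold change 4.44, limma adjusted p = 0.00115), and srebf1 (MSTRG.15712) held 5.06 to 8.57 FPKM in HG and 1.99 to 3.70 FPKM in CG (log2 fold change 1.18, limma adjusted p = 0.0275). nocta (MSTRG.10636), a rhythmic phosphatase also called nocturnin, held 2.66, 2.19 and 1.66 FPKM in HG and 11.2, 7.15 and 11.8 FPKM in CG (log2 fold change -1.79 ± 0.25 SE, limma adjusted p = 0.00529). pck1 (MSTRG.11058), an enzyme of gluconeogenesis, was lower as well, with 0.0475, 0 and 0.0189 FPKM in HG and 1042, 171 and 116 FPKM in CG (limma adjusted p = 0.00166). hlfa (MSTRG.5039), the third relative of DBP and TEF, averaged 13.0 FPKM in HG and 6.46 FPKM in CG and did not pass (log2 fold change 0.90 ± 0.29 SE, limma adjusted p = 0.0695), though it did with the median of ratios (limma adjusted p = 0.0383). Its duplicate hlfb (MSTRG.12139), under the minimum, held 0.0806, 0.0921 and 0.0577 FPKM in HG and 1.93, 0.697 and 1.73 FPKM in CG, every HG library lying below every CG library (limma adjusted p = 0.0503 with no minimum).

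The tested loci with a gene symbol whose level followed that of bhlhe40 (MSTRG.5173) most closely over the 6 libraries were tcf7l2 (Pearson r = 0.9997), nr0b2 (0.9982), rpgrip1l (0.9981), ptgs2b (0.9980) and flii (0.9973). These are correlations over 6 libraries that fall into 2 groups, so they mostly restate the difference between HG and CG, and 682 of 10283 loci compared reached 0.95. Among the clock loci themselves the highest were nfil3-5 (0.992), nfil3-2 (0.984) and nr1d4b at MSTRG.4017 (0.971), and the lowest was dbpa at MSTRG.15507 (-0.951).

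The clock loci also differed between libraries of the same group. CG-1 was the highest CG library in 9 of the 12 tested positive-limb loci (75%), against 45.8% of all tested loci. In the negative limb it was the highest in 9 of the 19 tested loci (47.4%), close to the share of all tested loci. The core activators clockb and arntl2, with tefa, cry1aa and per3, were highest in CG-1, while per1b, per2 and both cry1ba loci were lowest there. HG-1 was the lowest HG library in 18 of all 31 (58.1%), against 40.8% of all tested loci. HG-2 was the highest HG library in 9 of the 12 positive-limb loci (75%) and in 10 of the 19 negative-limb loci (52.6%), against 37.5%. In HG-2 this held for dbpa, dbpb, tefb, the tested ror genes, per1b, per3 and nr1d1.

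**Figure D5:**
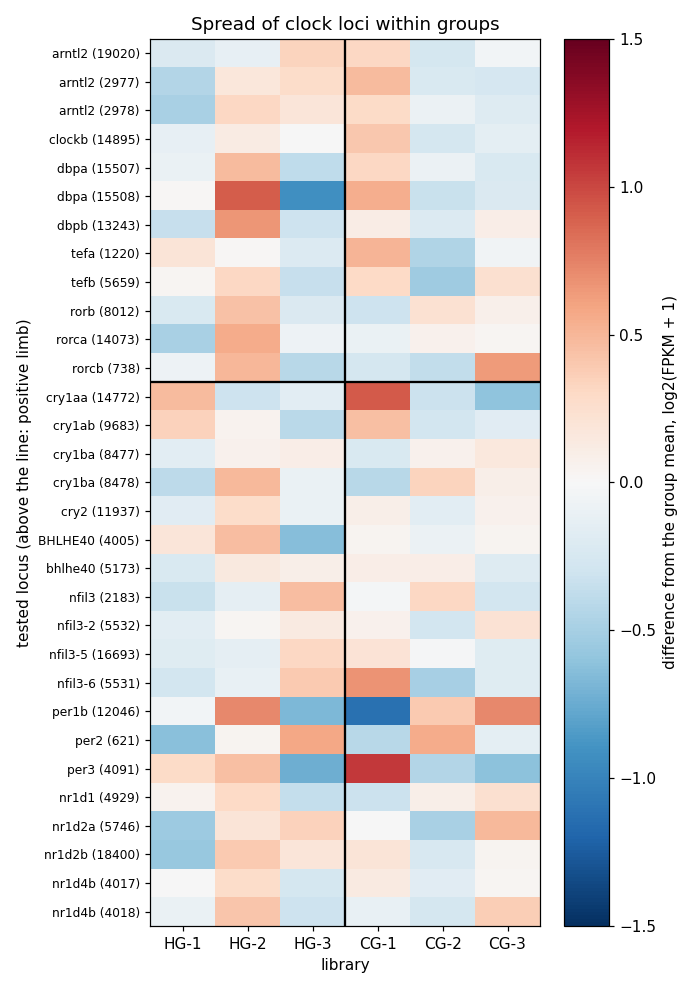
Difference of each library from its group mean, in log2(FPKM + 1), for the 31 tested clock loci (rows, positive limb above the line) in the HG libraries (left) and the CG libraries (right). Red is above and blue below the group mean, and the strongest colours are those of per3, cry1aa and per1b in CG-1 and of dbpa (MSTRG.15508) in HG-2 and HG-3.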

How the data were processed

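Liver RNA of 6 libraries (3 HG, 3 CG) was used, grouped by the treatment label. The authors mapped paired reads with HISAT, assembled loci with StringTie and deposited FPKM per locus and library (versions and genome build not given in the sources used here). All 6 sample columns were used as deposited. log2(FPKM + 1) was fitted with limma 3.58.1 in R 4.3.3 with a variance trend, two-sided, over loci that averaged 1 FPKM or more, with Benjamini-Hochberg adjustment. The fit was tested on simulated data in which only the stronger loci were given a change, so that test does not cover calls on weak loci. Summaries and figures used Python 3.11.15, numpy 2.4.6, pandas 2.3.3, scipy 1.17.1 and matplotlib 3.10.9. A locus matched when any of its names, joined by a semicolon, fitted the rule. Every clock locus was named, and of the lists of clock modifiers and outputs up to 3 loci in each direction with the smallest adjusted p. hlfa, hlfb, usp2 as a pair and the 5 pairs of related genes were chosen after their values were seen. Members and lists were chosen with earlier results of these data known. RefSeq gave 26 of 35 clock names by symbol and was used only for neighbouring genes. No sequences or coordinates are printed. The deposited FPKM carry no counts per locus, so counting intervals were not computed. Alternatives covered the pseudocount, the minimum, scaling, the variance model, a replicate block and leaving out each library.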

Additional observations from a re-analysis of the deposited data

How the results depend on the processing

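Pseudocounts of 0.1 and 0.5 and a fit without a variance trend kept all 16 calls on loci of the limbs, and each of 3 scalings kept 15, losing nr1d4b (MSTRG.4018), while the median of ratios added cry1ba (MSTRG.8478). A fit with no minimum kept 10, losing clockb, arntl2 (MSTRG.19020), dbpa (MSTRG.15508), cry2, nr1d2b and nr1d4b (MSTRG.4018). The replicate block kept 9, losing clockb, arntl2 (MSTRG.19020 and MSTRG.2977), cry1ba, cry2, nr1d2b and nr1d4b (MSTRG.4018). The log2 fold change of none of the 16 changed sign, and 7 kept their call without each library in turn. With no minimum, 1 positive-limb locus was higher, 6 modifiers and 3 outputs were lower. With a mean of at least 10 FPKM no positive-limb locus was tested, the highest mean being 7.25 FPKM (rorcb), so none could be called. In the negative limb only per1b, per3, BHLHE40 (MSTRG.4005) and nfil3-6 were tested, with 1 higher and 1 lower. Only 2 of the 16 calls were on loci that reached this minimum, and both held. At this minimum 6 modifiers were lower, 1 output was higher and 3 lower. Over all loci 634 were higher and 770 lower, of 3319 tested. The Ballgown-style model called 0 loci of either limb, modifiers or outputs and, over all loci, 2 higher and 0 lower, with 3583 at an unadjusted p under 0.05 against 6016 in limma. Modifiers were higher at 1 locus by the median of ratios and at 2 each by upper quartile and quantile normalization, and lower at 5 by the median of ratios and 6 by quantile normalization. Same-numbered libraries did not pair (correlation of their deviations 0.04, -0.10 and -0.08). With a replicate block 1 positive-limb locus was lower, 1 negative-limb locus was higher, 2 modifiers were lower, and over all loci 867 were higher and 1093 lower.

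Leaving out 1 library gave 1 to 2 higher and 1 to 3 lower positive-limb loci, 1 to 2 higher and 4 to 7 lower negative-limb loci, 3 to 6 lower modifiers, 2 to 3 higher and 3 to 6 lower outputs, and over all loci 784 to 970 higher and 804 to 1434 lower, mostly lowest without HG-1. Among loci with no call the sign of the log2 fold change turned for per1b (-0.01 in the Ballgown-style model, -0.37 to 0.55 without 1 library), per2 (0.03 by the median of ratios and by upper quartile, 0.00 by quantile normalization, -0.36 to 0.24 without 1 library), per3 (-0.16 to 0.68), tefa (-0.18 to 0.30) and rorca (-0.21 to 0.31). The cause was not tested. The table holds no counts, so the counting error of loci near 1 FPKM was not computed.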

Other observations

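The other 21 loci that matched by name were 16 crystallins, 4 enzymes or binding proteins named after crystallins and tefm, a mitochondrial elongation factor. Of these 6 were tested, and 1 was called (16.7%, against 20.4% of all tested loci). cryl1 (MSTRG.20178), a dehydrogenase of the uronate cycle that is abundant in liver, held 8.23, 11.8 and 17.2 FPKM in HG and 2.76, 3.23 and 3.77 FPKM in CG, a log2 fold change of 1.61 (adjusted p = 0.0115 from limma). crym (MSTRG.1299), which binds thyroid hormone, held 1.88, 8.40 and 8.35 FPKM in HG and 0.262, 0.765 and 2.95 FPKM in CG, and its groups overlapped. cryaba (MSTRG.9367), a small heat shock protein, was listed at 0 in all HG libraries and held 5.42, 0.892 and 0.604 FPKM in CG. cryz (MSTRG.15980) was the most abundant of them, with 22.3 to 35.7 FPKM in HG and 27.5 to 36.3 FPKM in CG.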
